A study of Mus musculus with 4 samples.

Results

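The 9 enzymes that make, salvage and clear deoxynucleotides (*Rrm1*, *Rrm2*, *Tyms*, *Shmt1*, *Tk1*, *Dck*, *Dut*, *Dctpp1* and *Samhd1*) were followed in RNA-sequencing of 4T1 cells, an established mouse mammary tumor line, here without genetic change (genotype WT). The genes were picked by their known function, with earlier results of these data known. Of these, 9 of 9 were in the table of 20197 genes. Cells stained with MitoSpy Red at 20 nM, a dye that collects in mitochondria with a high mitochondrial membrane potential (MMP), were sorted into the brightest 5% (high MMP) and the dimmest 5% (low MMP), with 2 samples of 100000 cells per group. Every sample, high or low, carried the same dye and came from the same untreated line. The study counts the samples of a group as independent experiments, without saying how the cultures were kept apart. The comparison asks which transcripts differ between tumor cells of high and low mitochondrial activity.

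DNA synthesis needs the 4 deoxynucleoside triphosphates (dNTPs) in balance. Ribonucleotide reductase converts ribonucleoside diphosphates to deoxynucleoside diphosphates, with *Rrm1* coding for its large catalytic subunit and *Rrm2* for the small subunit that carries the radical. Thymidylate synthase (*Tyms*) methylates dUMP to dTMP with a folate cofactor, to which the cytosolic serine hydroxymethyltransferase *Shmt1* supplies one-carbon units, while thymidine kinase (*Tk1*) and deoxycytidine kinase (*Dck*) phosphorylate salvaged nucleosides. dUTPase (*Dut*) keeps uracil out of DNA and makes dUMP, *Dctpp1* hydrolyses dCTP and modified forms of it, and *Samhd1* degrades dNTPs. In dividing cells *Rrm2*, *Tk1* and *Tyms* are known to be expressed mostly towards S phase, and mitochondria import most of their dNTPs from the cytosol or salvage nucleosides with kinases of their own.

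The stretches upstream of 4 of the genes are shown because their products are compared as pairs further on, the reductase subunits *Rrm1* and *Rrm2*, and *Tyms* and *Tk1*, the synthesis and salvage routes to dTMP. Each is the 150 bases before the start site in RefSeq (GRCm38.p6), 5′ to 3′ on the strand of the gene. In GENCODE M21 the bounds of *Tk1* (to 117826092) and *Rrm2* (from 24708241) reach into their stretches. By that annotation, part of each of these stretches lies inside the gene. Capitals mark CCAAT, the GC box GGGCGG and the 7-letter E2F core TTNNCGC with C or G at each N, searched on both strands.
Rrm1 (chr7:102441545-102441694, plus strand): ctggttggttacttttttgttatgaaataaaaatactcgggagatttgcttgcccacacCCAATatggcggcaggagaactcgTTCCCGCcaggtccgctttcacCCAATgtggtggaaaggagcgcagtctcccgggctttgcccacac
Rrm2 (chr12:24708104-24708253, plus strand): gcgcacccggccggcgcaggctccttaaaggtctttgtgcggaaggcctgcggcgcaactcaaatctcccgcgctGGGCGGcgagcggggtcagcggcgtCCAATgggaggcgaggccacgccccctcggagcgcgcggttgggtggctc
Tyms (chr5:30073626-30073775, minus strand): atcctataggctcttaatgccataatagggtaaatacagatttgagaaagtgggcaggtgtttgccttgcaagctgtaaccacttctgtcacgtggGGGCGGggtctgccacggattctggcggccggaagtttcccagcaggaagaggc
Tk1 (chr11:117826015-117826164, minus strand): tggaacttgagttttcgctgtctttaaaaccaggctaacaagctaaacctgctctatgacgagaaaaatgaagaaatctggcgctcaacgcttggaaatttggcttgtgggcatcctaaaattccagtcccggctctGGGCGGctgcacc

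*Rrm1* held 2 CCAAT boxes in this stretch with 1 E2F core between them, and *Rrm2* held 1 GC box followed by 1 CCAAT box. In *Tyms* and *Tk1* the stretch held 1 GC box each. Over the whole windows (250 bases before to 50 after the start site, 1 window for each of the 9 genes), CCAAT was present in 4 of 9 (*Rrm1*, *Rrm2*, *Shmt1* and *Dctpp1*), against 37.4% of 32817 windows of the same length, and GGGCGG was present in 8 of 9, against 35.6%. The 7-letter E2F core, which was added after the sequences had been seen, was present in 3 of 9 (*Rrm1*, *Rrm2* and *Shmt1*), against 9.57%. Its longer form with T in front was present in 0 of 9, against 2.26%, and the cell cycle element TTTGAA was present in 1 (*Dck*), against 17.9%. The CCAAT boxes lay outside the GC boxes and E2F cores in the stretches shown. By the GENCODE M21 bounds, the whole windows of *Dut* and *Shmt1* lie inside the gene, so not all of the sequence searched is upstream in that annotation. A match is a description of the letters, not evidence of binding.

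In GENCODE M21 on GRCm38, the genes are spread over chromosomes 2, 5, 7, 11 and 12, with *Rrm1* at chr7:102441695-102469771 (plus strand), *Rrm2* at chr12:24708241-24714146 (plus strand) and *Tyms* at chr5:30058202-30073617 (minus strand). The cytosolic serine enzyme and the kinases are *Shmt1* at chr11:60788104-60811718 (minus strand), *Tk1* at chr11:117815526-117826092 (minus strand) and *Dck* at chr5:88764996-88783281 (plus strand). The enzymes of nucleotide removal are *Dut* at chr2:125247190-125258608 (plus strand), *Dctpp1* at chr7:127256959-127260709 (minus strand) and *Samhd1* at chr2:157097533-157135265 (minus strand).

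The 4 libraries held 22591970 to 26395015 reads assigned to genes, and values are given as normalized reads, scaled so that each library sums to 20000000. Each enzyme was read from 1193 to 9766 reads per library, so that counting error was at most 2.90% of a value and was not what limited the comparison. Epithelial markers were abundant (*Epcam* 3647 to 4619, *Krt8* 13147 to 19554 normalized reads), whereas 5 of 8 immune markers were not among the genes analysed, *Ptprc*, the pan-leukocyte marker, had 0 to 2 reads per library and the macrophage marker *Cd68* had 59.9 to 149 normalized reads. Of the fibroblast, endothelial and fat markers, *Pdgfra* had 319 and 363 normalized reads in high MMP cells against 536 and 589 in low MMP cells, while the 5 others in the table had at most 15 reads in any library. In such bulk samples, fewer cells that express a gene and less of its RNA per cell cannot be told apart.

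The deoxynucleotide enzymes did not separate high from low MMP cells. For 9 of 9 the 2 groups overlapped, whereas the groups did not overlap for 37.6% of the 9999 genes averaging 100 or more normalized reads. None of the 9 had an unadjusted p under 0.05 in limma (9.96% of the 20197 genes tested), and none had an adjusted p under 0.05 (0% of genes, 0 of 20197). The estimates lay between -0.22 for *Dck* and 0.06 for *Tyms* on the log2 scale, 8 of 9 below 0, with a median of -0.06 beside -0.03 over all genes averaging 10 or more. The 95% intervals ran from 0.617-fold to 1.38-fold of the low MMP level at their widest, so a change of 2-fold in either direction lay outside every interval.

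**Figure D1:**
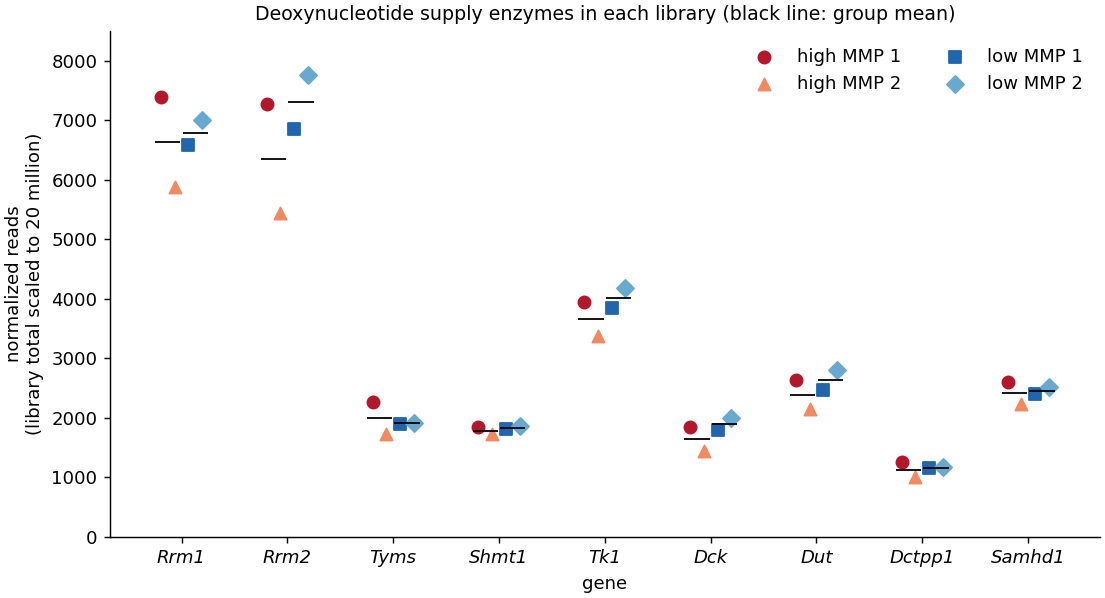
Normalized reads (linear axis from 0) of the 9 enzymes in each of the 4 libraries, with a black line at each group mean (n = 2). The high MMP 2 library gives the lowest point for every enzyme, and the groups overlap for all 9, for example in Rrm1, where the high MMP libraries are at 7400 and 5882 and the low MMP libraries at 6590 and 7004.

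For the reductase, *Rrm1* had 7400 and 5882 normalized reads in high MMP 1 and 2, and 6590 and 7004 in low MMP 1 and 2. Both low MMP libraries lay between the high MMP libraries, and the log2 difference, high minus low, was -0.04 (SE 0.14, 95% interval -0.43 to 0.35, adjusted p = 0.978 in limma). *Rrm2* had 7273 and 5436 in high MMP cells and 6852 and 7759 in low MMP cells. High MMP 1 lay between the low MMP libraries and high MMP 2 below them, so the group means of 6354 ± 1299 and 7306 ± 642 (SD, n = 2) differed by less than the spread of the high MMP samples, with a log2 difference of -0.21 (SE 0.18, -0.70 to 0.27, adjusted p = 0.795). *Rrm2b*, the alternative small subunit that serves cells outside S phase and after DNA damage, had 934 and 892 normalized reads in high and 893 and 847 in low MMP cells. Its log2 difference of 0.07 (SE 0.08, -0.15 to 0.29, adjusted p = 0.865) had the opposite sign to that of *Rrm2*, and the groups again overlapped.

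On the route to thymidylate, *Tyms* was the enzyme with the highest estimate. It had 2262 and 1734 normalized reads in high MMP cells and 1900 and 1911 in low MMP cells, so the low MMP libraries differed by far less than the high MMP libraries that enclosed them. Its log2 difference was 0.06 (SE 0.15, -0.35 to 0.46, adjusted p = 0.968 in limma). *Shmt1* was the steadiest of the 9, with 1840 and 1727 in high MMP cells, 1806 and 1855 in low MMP cells and a log2 difference of -0.04 (SE 0.08, -0.25 to 0.18, adjusted p = 0.951). *Shmt1* exons overlap those of *Smcr8* on the opposite strand (1519 to 1595 reads per library), and the strand setting of the counting is not given in the sources used here, so the 2 genes may share reads.

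Among the salvage kinases, *Tk1* had 3955 and 3377 normalized reads in high MMP cells and 3848 and 4181 in low MMP cells, a log2 difference of -0.13 (SE 0.12, -0.45 to 0.18, adjusted p = 0.808 in limma). *Dck* had the lowest estimate of the 9, with 1837 and 1438 in high MMP cells, 1797 and 1997 in low MMP cells and a log2 difference of -0.22 (SE 0.15, -0.63 to 0.19, adjusted p = 0.748). In both kinases high MMP 1 lay between the low MMP libraries and high MMP 2 below them, as in *Rrm2*. *Tk1* exons overlap those of *Afmid* on the opposite strand, which had only 55 to 80 reads.

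Of the enzymes that remove or break down nucleotides, *Dut* showed this arrangement too, with 2632 and 2144 normalized reads in high MMP cells, 2468 and 2810 in low MMP cells and a log2 difference of -0.15 (SE 0.14, -0.53 to 0.23, adjusted p = 0.828 in limma). *Dctpp1* had 1249 and 998.3 in high MMP cells against 1152 and 1176 in low MMP cells (log2 difference -0.06, SE 0.13, -0.42 to 0.30, adjusted p = 0.955). *Samhd1*, which keeps dNTP levels low outside S phase, had 2596 and 2235 in high MMP cells against 2393 and 2514 in low MMP cells (log2 difference -0.03, SE 0.11, -0.32 to 0.26, adjusted p = 0.990). For *Dctpp1* and *Samhd1*, as for *Rrm1* and *Tyms*, the low MMP libraries lay inside the range of the high MMP libraries.

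The count-based tests on recovered whole reads gave no call either. The smallest adjusted p among the 9 was 0.880 in edgeR, which called 0% of the 20197 genes at an adjusted p under 0.05 (1423 at an unadjusted p under 0.05), and 1.00 in DESeq2, which called 0.954% of the 12365 genes with an adjusted p (660 genes at an unadjusted p under 0.05).

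What varied was the high MMP samples themselves. The high MMP 2 library was the lowest of the 4 for 9 of 9 enzymes, compared with 28.9% of genes averaging 100 or more. It was also the lowest for 34 of 81 other genes of nucleotide pathways, among them 11 of 15 of de novo purine synthesis. The gap between the high MMP libraries, 0.09 (*Shmt1*) to 0.42 (*Rrm2*) on the log2 scale, exceeded both the difference between the groups and the gap between the low MMP libraries (-0.19 to -0.01, low MMP 1 minus low MMP 2) for 9 of 9. The share of all genes with such gaps was not counted. Over genes averaging 100 or more, deviations from a gene's mean also spread more in the high MMP libraries. Their SD was 0.20 and 0.17 in high MMP 1 and 2, and 0.14 and 0.14 in low MMP 1 and 2. The highest library was high MMP 1 for *Rrm1*, *Tyms*, *Dctpp1* and *Samhd1*, and low MMP 2 for *Rrm2*, *Shmt1*, *Tk1*, *Dck* and *Dut*. Relative to its mean over the 4 libraries, the median enzyme was at 0.09 in high MMP 1 and -0.19 in high MMP 2, while the median over all genes averaging 100 or more was at -0.02 and -0.00. High MMP 2 was also the lowest library for 4 of 5 epithelial markers, *Krt8* with 13147 normalized reads against 15446 to 19554 in the other libraries. The remaining marker, *Cdh1*, was lowest in high MMP 1, with 3903 against 4726 in high MMP 2 and 5421 and 5426 in low MMP cells. The part of such shifts in the enzyme values was not tested.

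The sign of the difference changed with the library left out for *Rrm1*, *Tyms*, *Shmt1*, *Dctpp1* and *Samhd1*. For *Rrm2*, *Tk1*, *Dck* and *Dut* it stayed below 0 whichever library was left out. Without high MMP 1, the 9 differences ranged from -0.42 to -0.08 and all lay below 0. Without high MMP 2, they ranged from -0.04 to 0.25, 4 of 9 below 0. With either library left out, 1 enzyme had an unadjusted p under 0.05 in limma, with the lone high MMP sample assumed to vary as the low MMP samples do: *Dctpp1* without high MMP 1 (-0.22, adjusted p = 0.407, beside 11.2% of all genes at an unadjusted p under 0.05) and *Tyms* without high MMP 2 (0.25, adjusted p = 0.265, beside 16.6%). With a single high MMP library the groups did not overlap for 9 of 9 enzymes without high MMP 1 (77.7% of genes) and for 4 of 9 without high MMP 2 (83.1%).

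**Figure D2:**
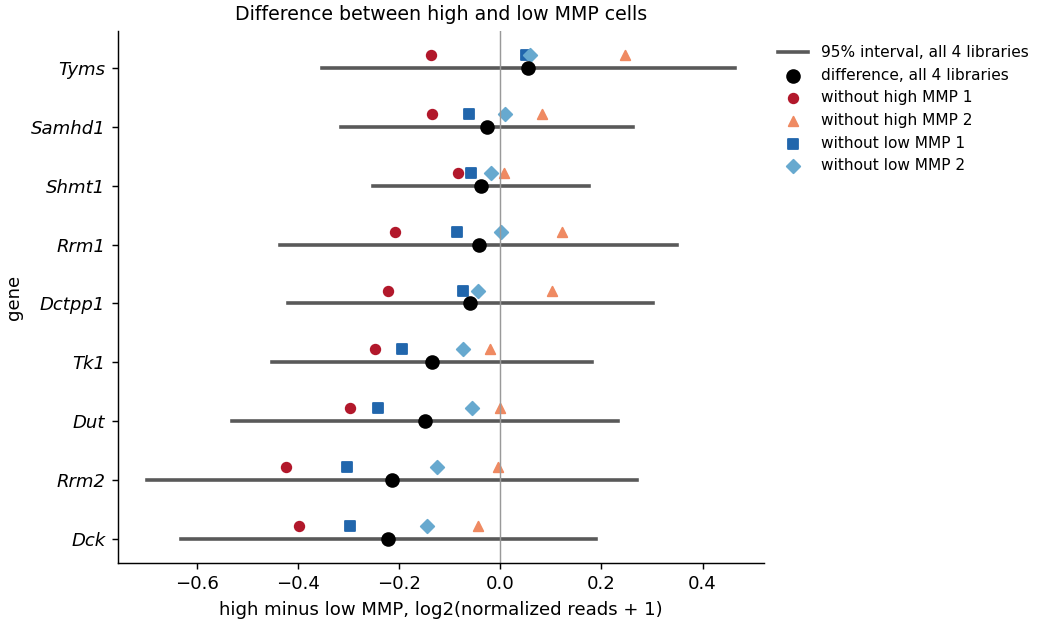
Log2 difference, high minus low MMP (log2 of normalized reads + 1), of each enzyme over all 4 libraries (black points), with its 95% interval from limma (grey bars), and with each library left out in turn (colored markers). Every interval includes 0, and removing high MMP 1 puts all 9 differences below 0, whereas removing high MMP 2 moves them to between -0.04 and 0.25.

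Levels between genes were compared per kilobase of the longest principal transcript in GENCODE M21, as means ± SD over the 4 libraries. *Rrm2* was the most abundant with 3114 ± 456 normalized reads per kilobase, followed by *Tk1* with 2667 ± 235, and their ranges overlapped. *Dctpp1* (1692 ± 156) and *Rrm1* (1681 ± 162) came next and could not be ordered, and *Dut* followed with 1289 ± 145. *Shmt1* (632 ± 19.9), *Samhd1* (620 ± 40.0), *Tyms* (617 ± 70.2) and *Dck* (574 ± 76.7) formed a lower tier in which each range overlapped the next. The ranges did not overlap between *Tk1* and *Dctpp1*, *Rrm1* and *Dut*, or *Dut* and *Shmt1*. This order depends on the transcript taken for each gene, which ran from 676 bases for *Dctpp1* to 3997 for *Rrm1*, with 3163 for *Tyms*.

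Because a ratio of 2 genes inside a library does not depend on how that library was scaled, 6 pairs with linked functions were also compared. The smallest p that an exact two-sided permutation test of 2 against 2 samples can give is 0.333, so none could pass, and the ratios are given as values. *Rrm2* to *Rrm1*, the balance of the reductase subunits' reads, was 0.983 and 0.924 in high MMP cells and 1.04 and 1.11 in low MMP cells. Both high MMP ratios lay below both low MMP ratios, by -0.17 on the log2 scale (exact permutation p = 0.333, adjusted p = 0.50 over 6 pairs), although neither gene separated the groups alone. Such a separation is common, as 39.4% of the ratios of all genes averaging 100 or more did not overlap between the groups. *Rrm2* to *Rrm2b*, the replicative to the alternative small subunit, was 7.79 and 6.09 in high MMP cells and 7.68 and 9.16 in low MMP cells, and overlapped (-0.28, exact permutation p = 0.667, adjusted p = 0.80). Its log2 difference rested on single libraries, at -0.46 without high MMP 1, -0.11 without high MMP 2 and -0.16 without low MMP 2.

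*Tyms* to *Tk1*, synthesis to salvage of dTMP, was 0.572 and 0.514 in high MMP cells and 0.494 and 0.457 in low MMP cells, with both high MMP libraries the higher ones (log2 difference 0.19). *Dut* to *Tyms*, the supply of dUMP to its use, was 1.16 and 1.24 in high MMP cells and 1.30 and 1.47 in low MMP cells (-0.20), and *Dck* to *Tk1* was 0.465 and 0.426 against 0.467 and 0.478 (-0.09). These last pairs were lower in both high MMP libraries, *Dck* to *Tk1* by a margin of 0.465 to 0.467. Each of these 3 pairs had an exact permutation p of 0.333 and an adjusted p of 0.50. *Samhd1* to *Rrm1*, breakdown to synthesis, was 0.351 and 0.380 against 0.363 and 0.359 and overlapped (0.02, exact permutation p = 1). Leaving out single libraries kept the sign of the 3 differences but moved *Tyms* to *Tk1* to 0.11 without high MMP 1, *Dut* to *Tyms* to -0.12 without low MMP 2, and *Dck* to *Tk1* to -0.15 without high MMP 1 and -0.02 without high MMP 2, while *Samhd1* to *Rrm1* ran from -0.04 without high MMP 2 to 0.07 without high MMP 1.

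Over all 36 pairs among the 9 enzymes, 18 ratios did not overlap between the groups, and 39.4% of the ratios of all genes averaging 100 or more did not. *Tyms* and *Dck* took part in 6 such pairs each out of 8 and *Rrm1* in 5, whereas *Shmt1* took part in none. *Tyms* was relatively higher in high MMP cells against *Rrm1*, *Rrm2*, *Tk1*, *Dck*, *Dut* and *Dctpp1*, and *Dck* was relatively lower against *Rrm1*, *Tyms*, *Tk1*, *Dut*, *Dctpp1* and *Samhd1*. The 36 pairs share 9 genes and 4 libraries and are not independent. As *Tyms* and *Dck* had the highest and lowest estimates of the 9, their counts in part restate those estimates.

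**Figure D3:**
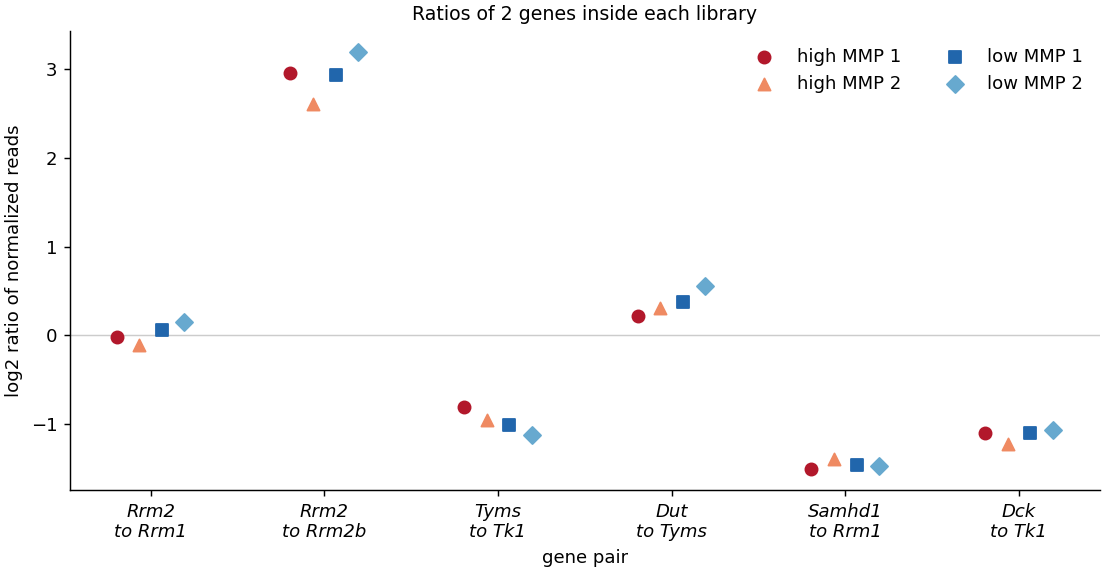
Log2 ratio of the normalized reads of 2 genes inside each library for 6 pairs. For Rrm2 to Rrm1 the high MMP libraries are at ratios of 0.983 and 0.924 and the low MMP libraries at 1.04 and 1.11, while Rrm2 to Rrm2b and Samhd1 to Rrm1 overlap between the groups.

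The genes with the profile closest to those of the outermost enzymes were also listed (Euclidean distance of mean-centred log2 values over the 4 libraries, genes averaging 100 or more). Their differences are close to those of the enzymes because they were picked for that profile. For *Tyms* they were *Gm15772* (distance 0.0142), *Ndufb11* (0.0226), which codes for a subunit of respiratory complex I, and *Ppa1* (0.0272), the cytosolic inorganic pyrophosphatase. For *Dck* they were *Pex10* (0.0202), a peroxisome assembly factor, *Rnaseh2c* (0.0212), a subunit of the ribonuclease that removes ribonucleotides from DNA, and *Rab33b* (0.0357). With 4 libraries many genes share a profile, so this is a description only.

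The wider nucleotide pathways gave no call either. Of 81 other genes in the table from 6 pathway lists, 0 had an unadjusted p under 0.05 in either direction, beside 9.96% of all genes tested. The counts were 0 of 13 reductase partners and nucleoside diphosphate kinases, 0 of 16 folate and thymidylate cycle genes, 0 of 7 genes of de novo pyrimidine synthesis, 0 of 15 of de novo purine synthesis, 0 of 16 salvage genes and 0 of 14 of nucleotide sanitation. The median log2 differences were 0.10, -0.00, -0.02, -0.03, -0.03 and 0.00 in that order. High MMP 2 was the lowest library for 4 of 13, 4 of 16, 4 of 7, 11 of 15, 3 of 16 and 8 of 14 genes. Over all 81 genes the groups were apart with high MMP above in 11 and below in 11. The shares among genes averaging 100 or more were 14.9% and 22.7%. *Txnrd1*, the thioredoxin reductase at the head of the electron supply to ribonucleotide reductase, had 6882 and 6773 normalized reads in high MMP cells and 5990 and 5861 in low MMP cells. The groups were apart, at a log2 difference of 0.20 (SE 0.08, unadjusted p = 0.0661 and adjusted p = 0.549 in limma). Among the 13 reductase partners and nucleoside diphosphate kinases, they were apart with high MMP above in 2 and below in 2. The nucleoside diphosphate kinase genes *Nme6* (0.23, SE 0.10) and *Nme4* (-0.20, SE 0.10) had estimates of opposite sign, with groups apart for each.

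In the salvage list, 2 uridine-cytidine kinase genes came nearest to the threshold, both with lower estimates in high MMP cells. *Uckl1* had 258 and 308 normalized reads in high and 390 and 343 in low MMP cells (-0.37, SE 0.14, unadjusted p = 0.0523, adjusted p = 0.507 in limma), and *Uck1* had 401 and 417 against 470 and 484 (-0.22, SE 0.09, unadjusted p = 0.0574, adjusted p = 0.526). *Cda*, the cytidine deaminase, had 125 and 93.7 against 84.6 and 78.8 (0.40, SE 0.20, adjusted p = 0.644). The groups did not overlap for these 3 genes. Over the whole salvage list they were apart with high MMP above in 4 of 16 genes and with high MMP below in 3 of 16, beside 14.9% and 22.7% of genes averaging 100 or more. In de novo synthesis, *Ctps*, which makes CTP from UTP, had a difference of 0.14 (SE 0.08), *Cad*, the enzyme of the first pyrimidine steps, -0.12 (SE 0.11), and *Cmpk2*, a mitochondrial pyrimidine kinase with 21.8 to 74.4 normalized reads, -0.76 (SE 0.53). The purine enzyme genes *Pfas*, *Guk1* and *Atic* had differences of -0.19 (SE 0.12), -0.12 (SE 0.09) and 0.13 (SE 0.10). The mitochondrial folate enzyme gene *Mthfd2* had 0.23 (SE 0.20) with overlapping groups, and *Mthfs*, at only 12.6 to 17.7 normalized reads, had -0.22 (SE 0.29). The reduced folate carrier gene *Slc19a1* had -0.11 (SE 0.16), also with overlapping groups. Of the sanitation genes, *Hddc3* had -0.29 (SE 0.15), *Nudt18* 0.15 (SE 0.11) and *Nt5c3* -0.08 (SE 0.09). The groups were apart for *Ctps*, *Pfas*, *Guk1*, *Atic*, *Hddc3*, *Nudt18* and *Nt5c3*, and overlapped for *Cad*, *Cmpk2* and *Mthfs*.

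Lists of cell cycle genes, none of them one of the 9 enzymes, had estimates of opposite sign in the same libraries. These lists were also chosen with earlier results of these data known, so the counts below are a description and not an independent test. Of 40 genes expressed towards the start of S phase (G1/S), 23 had an unadjusted p under 0.05 with a lower level in high MMP cells, against 6.01% of all genes in that direction, and 0 with a higher level. The groups were apart with high MMP below for 31 of 40, compared with 22.7% of genes averaging 100 or more, and the median log2 difference was -0.36. Of 54 genes of the G2 and M phases, 30 had an unadjusted p under 0.05 with a higher level in high MMP cells, against 3.95% of all genes in that direction, and 0 with a lower level. High MMP was above low MMP in 45 of 54 (14.9% of genes averaging 100 or more), with a median of 0.32. No gene of either list had an adjusted p under 0.05 in limma. Relative to each gene's mean, the median G1/S gene was at -0.09 in high MMP 1 and -0.31 in high MMP 2, against 0.20 and 0.18 in low MMP 1 and 2. In both high MMP libraries it lay below the median deoxynucleotide enzyme, at 0.09 and -0.19. For 32 of the 40 G1/S genes high MMP 2 was the lowest library, as it was for the 9 enzymes. How far cell cycle position contributed to the levels of the enzymes was not tested.

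**Figure D4:**
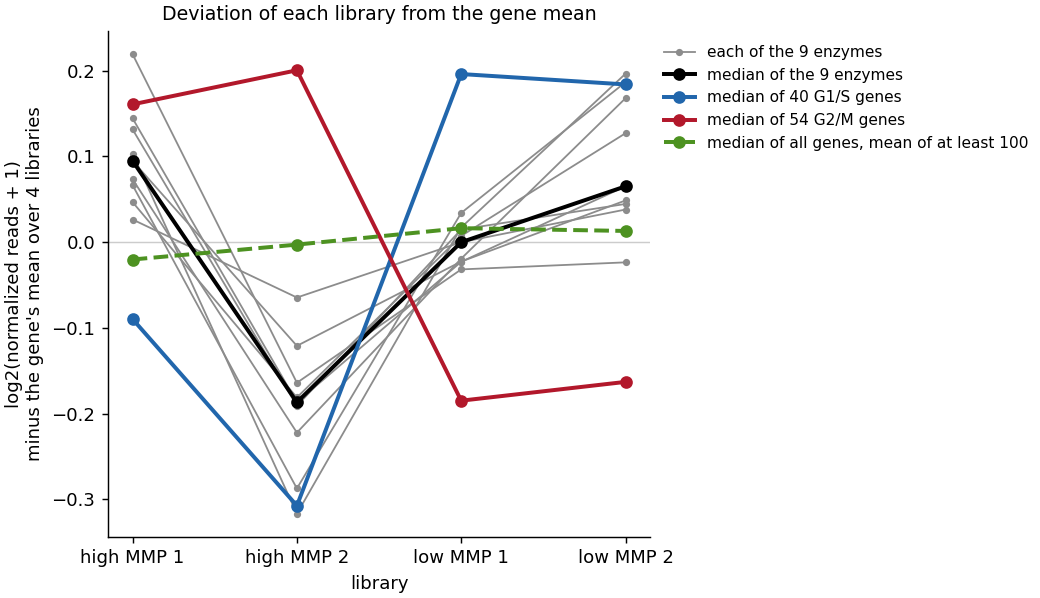
Deviation of each library from the gene's own mean over the 4 libraries (log2 of normalized reads + 1), for each of the 9 enzymes (thin grey lines) and as medians of the 9 enzymes, 40 G1/S genes, 54 G2/M genes and all 9999 genes averaging 100 or more, with lines joining the values of a gene or list and no order implied between libraries. The enzymes are lowest in high MMP 2 (median -0.19) and above their mean in high MMP 1 (median 0.09), whereas the G1/S median is below 0 in both high MMP libraries and the G2/M median above 0 in both.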

How the data were processed

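RNA of sorted 4T1 cells (2 high MMP and 2 low MMP samples, grouped by the sample titles) was measured with stranded mRNA libraries made from 200 ng of RNA. The authors aligned reads with STAR to GRCm38 (mm10), scaled counts to library size and kept genes expressed in at least 2 of the 4 samples; the submitters' processing notes also name HTSeq, and versions, annotation and strand setting are not given in the sources used here. The deposited values are therefore a normalized signal per gene, in columns that each sum to 20000000 up to rounding. They were whole multiples of 1 step in 100.0% of values (within 0.1 of a read), which gave depths of 26395015, 23899813, 22941960 and 22591970 reads for high MMP 1, high MMP 2, low MMP 1 and low MMP 2. Scaling to a total makes every value relative to the other genes.

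Of 20197 identifiers, 19993 matched GENCODE M21. The log2(value + 1) scale was tested in limma 3.58.1 (eBayes with trend, no block, no filter) under R 4.3.3, two-sided, adjusted by Benjamini-Hochberg over all 20197 genes at 0.05. On this scale folds of low genes are understated. Intervals are at 95%. Ratios were tested with an exact permutation test in Python 3.11.15. Alternatives were pseudocounts of 0.1 and 5, filters on a mean of 10 and of 100, median-of-ratios and quantile scaling, no variance trend, a replicate block, edgeR 4.0.16 and DESeq2 1.42.0 on recovered reads, and leaving out each sample. The fits were tested on simulated data. The 9 enzymes and all lists were chosen with earlier results of these data known.

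Named genes are the 9 enzymes, *Rrm2b*, up to 3 genes per pathway list averaging 10 or more and with the smallest unadjusted p, and the 3 genes (averaging 100 or more) nearest in profile to the enzymes with the highest and lowest difference. Cell cycle genes were treated as lists only. One further gene, and the pair it formed, are not reported here. *Krt8*, *Epcam*, *Cdh1*, *Ptprc*, *Cd68* and *Pdgfra* come from the marker lists, and overlapping genes are named for their shared position.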

Additional observations from a re-analysis of the deposited data

How the results depend on the processing

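In limma, 0 genes passed the adjusted threshold under every pseudocount, filter, scaling and left-out library tried. DESeq2 called 118 genes and edgeR with the replicate block 106, but none of the 9 enzymes was called in any of 17 alternatives. Median-of-ratios scaling (factors 0.982 to 1.02), edgeR and DESeq2 raised all 9 estimates by similar amounts, 0.0409 to 0.0420, 0.0382 to 0.0510 and 0.0424 to 0.0560, so only those closest to 0 changed sign. Shmt1 moved to 0.00326 and Samhd1 to 0.0152 with median-of-ratios scaling. In edgeR without a block, Rrm1 was at 0.0044, Shmt1 at 9.27e-05 and Samhd1 at 0.0153. In DESeq2, Rrm1 was at 0.00905, Shmt1 at 0.00429 and Samhd1 at 0.0197.

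Leaving out each library in turn gave -0.208 to 0.123 for Rrm1, -0.136 to 0.247 for Tyms, -0.0836 to 0.00741 for Shmt1, -0.221 to 0.102 for Dctpp1, -0.134 to 0.0818 for Samhd1 and -0.0415 to 0.0739 for the log2 ratio of Samhd1 to Rrm1. The other enzymes stayed below 0, at -0.424 to -0.00377 for Rrm2, -0.248 to -0.0205 for Tk1, -0.398 to -0.0439 for Dck and -0.297 to -0.000991 for Dut. The median of the 9 ran from -0.220744 (without high MMP 1) to 0.007411 (without high MMP 2), the number at an unadjusted p under 0.05 from 0 to 1 and the number whose groups did not overlap from 0 (without low MMP 2) to 9 (without high MMP 1). The groups did not overlap for 5 of 9 without low MMP 1. The share over all genes was not counted with a low MMP library left out, so these counts say nothing particular to the enzymes.

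The shared sample numbers are not stated to pair samples, and same-numbered samples did not deviate together (correlation -0.42 over 12902 genes). With the replicate block, limma called 0 genes (1055 at an unadjusted p under 0.05), and Samhd1 was at 0.0114 in edgeR. With the numbers crossed as the block, an alternative chosen after seeing the data, limma called 0 genes and edgeR 733, with Samhd1 at 0.0116. Tests with a block and count tools give no value for the overlap of groups. The spread between 2 samples per group, rather than depth, limited the precision.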
